A study of Mus musculus with 8 samples.

Results

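Imprinted genes, those expressed mainly from 1 parental chromosome, were examined in an ATAC-seq data set of mouse embryonic stem cells, as 45 genes in 18 clusters. A peak of accessible chromatin was counted as belonging to these genes when its centre lay in the span of a gene in RefSeq GRCm38.p6 or within 5 kb of an end. All 45 genes had at least 1 such peak, and they held 258 of the 134407 peaks, of which 31 lay at more than 1 of the genes. ATAC-seq measures accessibility through the insertions of the Tn5 transposase into open chromatin. All 8 libraries came from the wild-type E14 line, grown on gelatin in medium with fetal bovine serum and LIF, and each was made from 50000 live cells. The 4 control libraries came from cultures of 24 h without inhibitor. The 4 paused libraries came from cultures given INK128, which inhibits mTOR kinase, at 200 nM for 24 h, a treatment used as a culture model of the paused blastocyst. E14 is a single cell line, and the labels do not say whether the replicates were separate cultures, so p-values measure the spread between these libraries, which may be technical.

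Imprinting is set in the germ line. A differentially methylated region (DMR) that gains DNA methylation in the egg or the sperm keeps it on that parental chromosome after fertilisation, and the nearby genes read it, often through a long non-coding RNA that silences neighbours in cis (Airn, Kcnq1ot1) or through CTCF-bound insulation (H19 and Igf2). ZFP57 binds a methylated hexamer in such regions and recruits TRIM28, and this keeps the mark in embryonic stem cells. Because 1 parental copy of a germline DMR is closed and the other open, a peak there is the sum of both copies. The deposited values do not separate the parental chromosomes, so a change in 1 copy and a change in both cannot be told apart, nor can a change in all cells and one in some cells.

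The start windows below are shown because they are the parts of the members where imprints and promoters meet: the starts of genes with a germline DMR at the start whose window overlaps a tested peak, and those of Igf2r and Zdbf2, where the start peak was called. Each runs from 250 bases before to 50 bases after an annotated start in RefSeq GRCm38.p6 and is the reference sequence, not that of the E14 cells. Capitals mark the hexamer TGCCGC, the ZFP57 site, or GCGGCA, the same site on the other strand.
Airn: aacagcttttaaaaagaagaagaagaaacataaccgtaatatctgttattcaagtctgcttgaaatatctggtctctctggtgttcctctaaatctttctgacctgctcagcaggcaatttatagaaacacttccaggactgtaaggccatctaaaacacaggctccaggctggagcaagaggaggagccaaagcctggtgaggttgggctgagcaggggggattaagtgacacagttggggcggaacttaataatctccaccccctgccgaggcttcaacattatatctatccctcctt
Kcnq1ot1: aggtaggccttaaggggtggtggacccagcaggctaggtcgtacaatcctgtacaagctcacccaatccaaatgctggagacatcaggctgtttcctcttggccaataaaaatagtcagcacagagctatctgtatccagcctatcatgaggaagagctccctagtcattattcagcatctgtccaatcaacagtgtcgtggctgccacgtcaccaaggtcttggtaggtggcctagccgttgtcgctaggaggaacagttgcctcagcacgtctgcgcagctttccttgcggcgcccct
Mcts2: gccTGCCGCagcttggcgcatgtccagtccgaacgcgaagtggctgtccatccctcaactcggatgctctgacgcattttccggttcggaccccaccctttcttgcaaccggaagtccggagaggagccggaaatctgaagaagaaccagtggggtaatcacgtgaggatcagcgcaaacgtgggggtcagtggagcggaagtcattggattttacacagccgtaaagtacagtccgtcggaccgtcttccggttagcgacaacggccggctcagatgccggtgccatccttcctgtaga
Mest: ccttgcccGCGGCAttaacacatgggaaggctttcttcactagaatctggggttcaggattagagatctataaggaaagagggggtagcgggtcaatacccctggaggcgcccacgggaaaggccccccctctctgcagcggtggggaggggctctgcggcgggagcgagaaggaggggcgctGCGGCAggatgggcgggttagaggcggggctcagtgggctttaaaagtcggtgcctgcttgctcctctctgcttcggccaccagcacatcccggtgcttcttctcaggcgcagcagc
Nnat: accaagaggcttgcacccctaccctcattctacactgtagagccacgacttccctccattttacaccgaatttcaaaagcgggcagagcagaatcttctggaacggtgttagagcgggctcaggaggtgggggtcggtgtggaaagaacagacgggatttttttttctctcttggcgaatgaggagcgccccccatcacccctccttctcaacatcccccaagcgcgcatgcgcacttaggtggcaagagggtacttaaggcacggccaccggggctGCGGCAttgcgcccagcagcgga
Plagl1: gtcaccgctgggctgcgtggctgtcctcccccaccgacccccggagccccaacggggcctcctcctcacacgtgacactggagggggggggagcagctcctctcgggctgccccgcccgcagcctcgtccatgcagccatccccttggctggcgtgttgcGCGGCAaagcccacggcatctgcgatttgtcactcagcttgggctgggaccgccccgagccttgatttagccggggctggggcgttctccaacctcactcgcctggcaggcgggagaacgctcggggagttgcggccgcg
Zrsr1: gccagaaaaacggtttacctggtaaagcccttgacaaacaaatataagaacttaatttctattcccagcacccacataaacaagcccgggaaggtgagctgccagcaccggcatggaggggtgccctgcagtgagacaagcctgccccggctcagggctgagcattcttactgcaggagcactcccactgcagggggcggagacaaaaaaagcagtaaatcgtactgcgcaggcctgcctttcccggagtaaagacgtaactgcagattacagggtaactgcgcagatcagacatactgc
Igf2r: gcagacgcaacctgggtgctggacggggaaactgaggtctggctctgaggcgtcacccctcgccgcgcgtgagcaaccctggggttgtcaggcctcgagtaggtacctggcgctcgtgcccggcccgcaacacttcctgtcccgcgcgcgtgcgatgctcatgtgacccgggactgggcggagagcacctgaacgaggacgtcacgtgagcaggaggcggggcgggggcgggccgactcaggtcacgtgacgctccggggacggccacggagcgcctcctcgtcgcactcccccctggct
Zdbf2: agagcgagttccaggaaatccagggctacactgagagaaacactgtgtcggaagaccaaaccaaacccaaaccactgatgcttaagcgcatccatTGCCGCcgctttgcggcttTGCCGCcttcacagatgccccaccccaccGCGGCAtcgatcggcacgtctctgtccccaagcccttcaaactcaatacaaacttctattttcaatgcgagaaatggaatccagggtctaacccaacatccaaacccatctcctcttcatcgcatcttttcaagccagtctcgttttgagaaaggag

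The windows lie at chr17:12741061-12741360 (plus strand) for Airn, chr7:143296498-143296797 (minus strand) for Kcnq1ot1, chr2:152686898-152687197 (plus strand) for Mcts2, chr6:30737800-30738099 (plus strand) for Mest, chr2:157559828-157560127 (plus strand) for Nnat, chr10:13090582-13090881 (plus strand) for Plagl1, chr11:22971755-22972054 (plus strand) for Zrsr1, chr17:12769657-12769956 (minus strand) for Igf2r and chr1:63200108-63200407 (plus strand) for Zdbf2. The hexamer was present in 5 of these 9 windows, with 3 matches at Zdbf2, 2 at Mest and 1 each at Mcts2, Nnat and Plagl1. Over the 50 windows of the 34 member genes with an annotated start, some of which overlap, 13 (26.0%) held the hexamer on either strand, against 11.6% of all 32851 windows of the same 300 bases. The member windows also had a higher GC content, with a median of 55.8% against 52.7%. Of the 21 member windows that overlap a tested peak, 11 (52.4%) held the hexamer, 2 of them windows of Mest that overlap each other, against 19.5% of all 11945 windows that overlap a tested peak. The median GC content of these windows was 61.7% at the members and 60.7% in all. A match describes the letters in the window and not the binding of the factor.

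Peaks at the imprinted genes were called in both directions. On the deposited scale rises had a smaller share than among peaks in general. The share of falls was close to that of peaks in general, and no test of these differences was made. Of the 258 peaks, 248 averaged 10 or more over the 8 libraries and were tested, and 10 were weaker. A peak was called when limma-trend gave a Benjamini-Hochberg adjusted p under 0.05 over all 127402 tested peaks of the genome. In the paused libraries 18 peaks at imprinted genes were called higher (7.26%) and 9 lower (3.63%), against 11.0% and 2.91% of all tested peaks, so 27 (10.9%) were called against a background of 13.9%. At an unadjusted p under 0.05 there were 66 peaks (28.7% of all tested peaks reached it). The called peaks lay at 17 of the 45 genes and in 11 of the 18 clusters. The median change over the 248 peaks was 0.05 on the log2(value + 1) scale, and that over all tested peaks was 0.10. The split between higher and lower calls depended on how libraries were scaled: it was 7 higher and 14 lower after TMM rescaling (2.82% and 5.65%, against 5.99% and 4.15% of all tested peaks), 5 and 18 after scaling to each library's total reads (2.02% and 7.26%, against 4.51% and 5.36%), and 6 and 12 after a loess correction (2.42% and 4.84%, against 5.10% and 3.50%). Under all 3 of these scalings 12 of the 27 peaks remained called, 5 of them higher and 7 lower, and none of the 27 changed sign in any of the 18 alternative fits. DESeq2 called 9 member peaks, 4 higher and 5 lower (1.61% and 2.02%, against 3.06% and 1.49% of all tested peaks). Without paused replicate 4 limma-trend called 14 of the 248 (8 higher), and 9.08% of all tested peaks (7.05% higher). Without control replicate 3 it called 15 of the 248 (3 lower), and 10.3% of all tested peaks (1.82% lower). Without control replicate 1 it called 5 of the 248 lower, and 1.83% of all tested peaks. The clusters with a call numbered 7 without control replicate 3, without paused replicate 4 and in DESeq2. The plot of changes by cluster shows how the calls are spread.

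**Figure D1:**
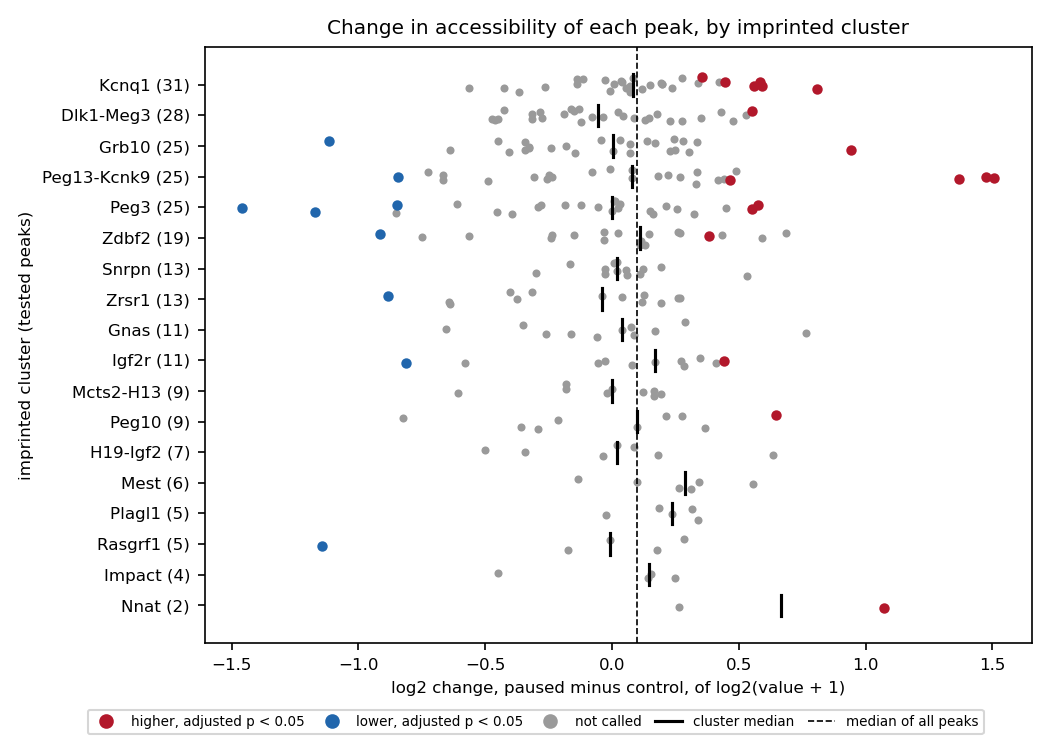
Change in accessibility of each of the 248 tested peaks (x axis, log2 change of log2(value + 1), paused minus control) by imprinted cluster (y axis, number of tested peaks in brackets), with called rises in red, called falls in blue, the median of each cluster as a bar and the median of all peaks of the genome, 0.10, as a dashed line. The 3 furthest points to the right are peaks of Trappc9 in the Peg13-Kcnk9 cluster, and the furthest to the left is a peak of Usp29 in the Peg3 cluster.

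The libraries held between 4434037 and 21161767 reads in peaks. Control replicate 1 was the deepest, with a median of 91 reads per peak against 18 to 29 in the other 7. The summed values of all peaks were 1.12 times higher in the paused libraries. Peaks at 7 of 8 pluripotency genes summed to between 5210 and 5500 in the control libraries and between 5960 and 6870 in the paused ones, with 13 of 75 tested peaks called higher (17.3%) and 1 lower (1.33%), against 11.0% and 2.91% of all tested peaks, while Dppa5a had no peak. Peaks at the markers of endoderm, mesoderm, neural cells, fibroblasts and trophoblast had 4 calls among 78 tested peaks (5.13%, against 13.9% of all tested peaks): 2 rises at mesoderm genes, 1 rise at trophoblast genes and 1 fall at fibroblast genes. The part of cell composition in the changes was not tested.

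Starts are described first, because the germline DMRs of many paternally expressed genes coincide with them. Peaks within 1 kb of a start were tested at 32 of the 45 genes, 36 peaks in all, and 4 of them (11.1%) were called, all higher, against 12.3% of all 13903 tested peaks near an annotated start (11.3% higher and 1.06% lower). The median change was 0.19 at the 36 member starts and 0.18 at all annotated starts. On the deposited scale 32 of the 36 changes were positive, against 11482 of the 13903 at all annotated starts. Of the 36, 24 were positive after TMM rescaling, 22 after scaling to total reads and 15 after the loess correction. Of the 4 start calls, 1 was left after TMM rescaling and 0 after scaling to total reads or the loess correction, while 1 was left without control replicate 3 or paused replicate 4 and 2 without control replicate 1. For 11 genes without an annotated start either end of the span was used, and the called peaks of Kcnk9 and Cdkn1c are of this kind. The 13903 peaks were counted by annotated starts only, so the sets are not defined alike. None of the 9 called falls lay within 1 kb of a start.

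No peak at the start of a gene listed here with a germline DMR was called. The list labels whole genes, and the single starts of genes listed without one, such as Zdbf2 and Gnas, were not checked for a germline DMR. All 10 had positive changes on the deposited scale, as did 11482 of the 13903 tested peaks near any annotated start. Of the 10, 8 were positive after TMM rescaling or scaling to total reads and 6 after the loess correction. The changes on the deposited scale ran from 0.04 at Zrsr1 to 0.44 at Peg13, with a median of 0.27. An unadjusted p under 0.05 was reached at 2 of the 10, against 4562 of the 13903 near any annotated start. At the remaining 26 start peaks the median was 0.16 and 4 were called. Mest, a gene of the alpha/beta hydrolase family whose promoter is a maternally methylated DMR, had a peak 129 bases from its start (chr6:30737821-30738021) with values of 86.4, 78.8, 77.9 and 69.1 in the control libraries and 85.4, 94.6, 111.7 and 106.6 in the paused ones. Its groups overlapped by 1 library, paused replicate 1, and its change was 0.34 ± 0.14 (SE, n = 4 and 4; adjusted p = 0.0898). A second Mest peak, 631 bases from another annotated start and chosen after its values were seen, was at 73.5 to 84.7 in the control and 85.2 to 101.9 in the paused libraries, without overlap (log2 change 0.26 ± 0.14, adjusted p = 0.193). At the start of Airn, the non-coding RNA that silences Igf2r on the paternal chromosome, values were 63.6, 69.3, 62.7 and 77.9 in the control and 73.8, 88.3, 94.7 and 77.3 in the paused libraries, which overlapped (0.28 ± 0.15, adjusted p = 0.19).

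Several germline DMR starts were strong peaks. Nespas, an antisense transcript of the Gnas cluster, had a start peak with a mean of 243 ± 28.4 (SD, n = 4) in the control and 257 ± 13.5 in the paused libraries (log2 change 0.09 ± 0.11 SE, adjusted p = 0.643). Zrsr1, a splicing factor gene inside Commd1, was at 199 ± 17.7 and 208 ± 48.0, with a change of 0.04 ± 0.13. Both of these changes turned negative after TMM rescaling, scaling to total reads and the loess correction. Mcts2, a retrogene inside H13, was at 187 ± 33.3 and 210 ± 34.1 (0.17 ± 0.13), and Kcnq1ot1 at 182 ± 28.3 and 208 ± 19.8 (0.20 ± 0.12), and both of these turned negative after the loess correction. The groups overlapped at all 4 of these starts. Plagl1, a zinc-finger gene, was weaker, with 42.7 ± 7.88 and 53.6 ± 11.7 (0.31 ± 0.18, adjusted p = 0.249).

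At several genes known for an imprinting control region no peak lay within 1 kb of the start. Whether the peaks described here lie in such a region was not examined. At Peg3, a zinc-finger gene, the nearest peak lay 1759 bases away (it and the Snrpn and H19 peaks nearest the start were chosen after their values were seen), with a mean of 186 ± 17.3 in the control and 215 ± 18.4 in the paused libraries (log2 change 0.21 ± 0.11, adjusted p = 0.214). Snrpn, the gene of a spliceosomal protein at the centre of the Prader-Willi and Angelman region, was flanked by peaks 1120 and 1284 bases from its start, at 91.7 ± 7.25 against 94.0 ± 17.5 and at 66.1 ± 13.8 against 65.6 ± 17.1. Their changes were 0.02 and -0.03, and the groups overlapped. A weaker peak 2957 bases from the Snrpn start (chr7:60008056-60008256), that of lowest p in its cluster, was at 23.2, 25.1, 20.3 and 27.9 in the control and 28.8, 33.1, 35.7 and 44.5 in the paused libraries. Every paused library was above every control library there, but it was not called (0.53 ± 0.21, adjusted p = 0.0886). H19, a non-coding RNA expressed from the maternal chromosome, had its nearest peak at 2178 bases, on the side of Igf2, with values of 12.4, 13.1, 20.3 and 13.2 in the control and 18.5, 36.3, 9.31 and 11.7 in the paused libraries. That peak held few reads and its groups overlapped (0.18 ± 0.33, adjusted p = 0.759).

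**Figure D2:**
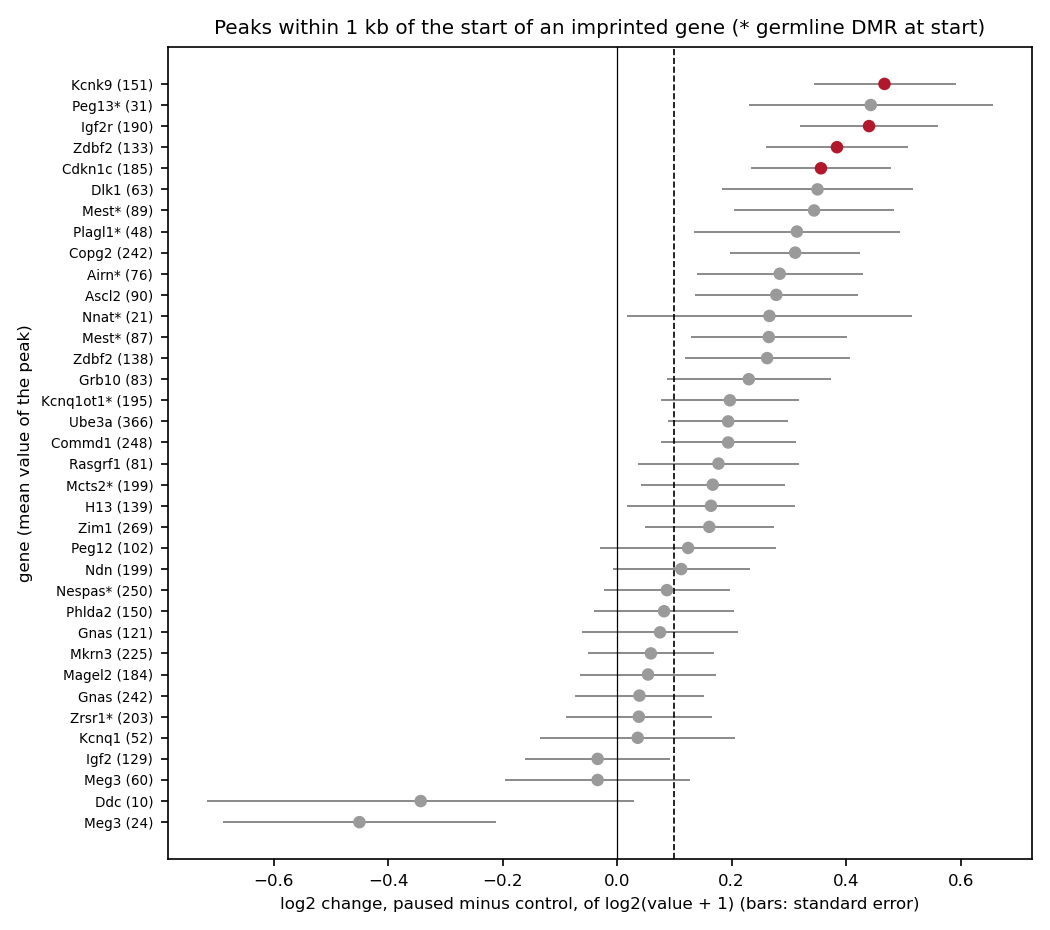
Log2 change (x axis, log2(value + 1), paused minus control, bars are the standard error of limma-trend) of the 36 tested peaks within 1 kb of the start of an imprinted gene (y axis, mean value of the peak in brackets, asterisk for a gene listed with a germline DMR at the start), with called peaks in red and the median of all peaks, 0.10, as a dashed line. Called points are Kcnk9, Igf2r, Zdbf2 and Cdkn1c, and the 4 points below 0 are 2 peaks of Meg3 and 1 each of Igf2 and Ddc.

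The 4 called starts belonged to genes listed here without a germline DMR at the start. The list labels genes and not single starts, and Zdbf2 has 2 annotated starts. Whether the upstream Zdbf2 start lies in a germline DMR was not examined. At Igf2r (chr17:12769642-12769842, 36 bases from the start), the receptor that removes Igf2 from the cell surface, values were 142, 199, 139 and 169 in the control and 220, 208, 206 and 239 in the paused libraries. Every paused library was above every control library, and the change was 0.44 ± 0.12 (SE; adjusted p = 0.0116), but the call was lost without control replicate 3 or paused replicate 4, under all 3 other scalings and in DESeq2. At Kcnk9 (chr15:72549468-72549668, 954 bases from an end of the gene), a potassium channel gene, they were 142, 131, 115 and 116 against 153, 172, 208 and 168, again without overlap (0.47 ± 0.12, adjusted p = 0.00905), and this call was lost after scaling to total reads, after the loess correction and in edgeR with TMM and DESeq2.

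Zdbf2, a zinc-finger gene expressed from the paternal chromosome, had a peak 124 bases from its upstream start (chr1:63200382-63200582) at 113, 115, 101.6 and 134 in the control and 143, 144, 149 and 169 in the paused libraries. This called peak was chosen after its values were seen. Its groups did not overlap (0.38 ± 0.12, adjusted p = 0.033), and leaving out any of control replicates 1, 2 and 3 or paused replicate 4 ended the call, as did the 3 other scalings, edgeR with TMM and DESeq2. The peak 1 base from the other Zdbf2 start was not called, with 127 ± 36.7 against 150 ± 21.0 (0.26 ± 0.14, adjusted p = 0.226). Cdkn1c, an inhibitor of cyclin-dependent kinases that restrains growth, had a peak 3 bases from an end of the gene (chr7:143460962-143461162) at 157, 203, 137 and 154 in the control and 235, 186, 213 and 196 in the paused libraries. The second control library was above 2 paused ones, the change was 0.36 ± 0.12 (adjusted p = 0.0457), and leaving out any library other than control replicate 2 and paused replicate 2 ended the call, as did the 3 other scalings, edgeR with TMM and DESeq2.

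Away from starts, 23 of 212 tested peaks were called (10.8%; 14.0% of all tested peaks over 1 kb from an annotated start, 10.9% higher and 3.13% lower), 14 higher and 9 lower. The 6 peaks called in every alternative fit that tested them all lay here: 2 rises in Trappc9, 1 each in Ddc and Kcnq1, and falls in Usp29 and Grb10. Whether they are exonic or intronic was not analysed here.

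Trappc9, a subunit of the TRAPP complex that tethers vesicles, is expressed mainly from the maternal chromosome in brain and holds the paternally expressed non-coding RNA Peg13 within its span. Of its 23 tested peaks 3 rose and 1 fell. The peak at chr15:72719515-72719715 had values of 51.2, 38.2, 40.6 and 60.2 in the control libraries and 98.0, 125, 116 and 157 in the paused ones, from 24 to 148 and from 75 to 134 reads. The lowest paused library was well above the highest control library, and the change of 1.37 ± 0.16 (SE, adjusted p = 4.64e-07) stayed between 1.19 and 1.49 in all 18 alternatives. At chr15:72970400-72970600 the values were 15.6, 17.9, 3.39 and 14.7 against 41.5, 31.6, 23.3 and 37.5 (1.48 ± 0.32, adjusted p = 0.00168), on 2 to 45 reads per library. The fall at chr15:72925105-72925305 went from 25.2, 31.1, 42.3 and 32.3 to 13.8, 22.1, 21.7 and 14.1 without overlap (-0.84 ± 0.24, adjusted p = 0.0163), and it was no longer called without control replicate 3 or paused replicate 4 or in DESeq2.

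Another Trappc9 rise, at chr15:72746942-72747142, rested on few reads, 0 to 31 in the control and 5 to 15 in the paused libraries. Its groups overlapped and 10 of 17 alternatives lost the call, those without control replicate 4 or paused replicate 1, 2 or 4 among them (1.51 ± 0.52, adjusted p = 0.0441). At the start of Peg13 values were 24.9, 28.7, 22.0 and 27.9 in the control and 27.7, 41.0, 45.0 and 30.5 in the paused libraries (0.44 ± 0.21, adjusted p = 0.162). The summed values of the 26 peaks of this cluster were 934 to 990 in the control and 1057 to 1198 in the paused libraries, 1.18 times higher and without overlap.

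Ddc, the aromatic amino acid decarboxylase, and Grb10, an adaptor that dampens insulin receptor signalling and is a substrate of mTOR, share a cluster of 25 tested peaks, and 1 peak was called in each direction. That was 4.00% each, against 11.0% of all tested peaks called higher and 2.91% lower. In Ddc, the peak at chr11:11886035-11886235, 4273 bases from the nearest start, was at 38.7, 32.2, 33.9 and 35.3 in the control and 66.9, 72.5, 62.1 and 71.5 in the paused libraries. Both groups were tight and far apart (0.94 ± 0.16, adjusted p = 0.00014). In Grb10, the peak at chr11:11961035-11961235 was at 24.9, 37.0, 30.5 and 32.3 in the control and 9.23, 12.6, 17.1 and 17.6 in the paused libraries (-1.12 ± 0.26, adjusted p = 0.00291). All 4 control libraries were above all paused ones, with 18 to 72 reads against 8 to 15. At the Grb10 start itself the values overlapped, at 75.9 ± 7.93 and 89.5 ± 12.5 (0.23 ± 0.14, adjusted p = 0.294), the Ddc start was weak, at 11.3 ± 2.04 and 9.03 ± 3.27 (-0.34 ± 0.37, adjusted p = 0.58), and the strongest peak of the cluster, in Ddc at chr11:11829244-11829444, was at 263 ± 33.2 and 312 ± 32.8 (adjusted p = 0.131).

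**Figure D3:**
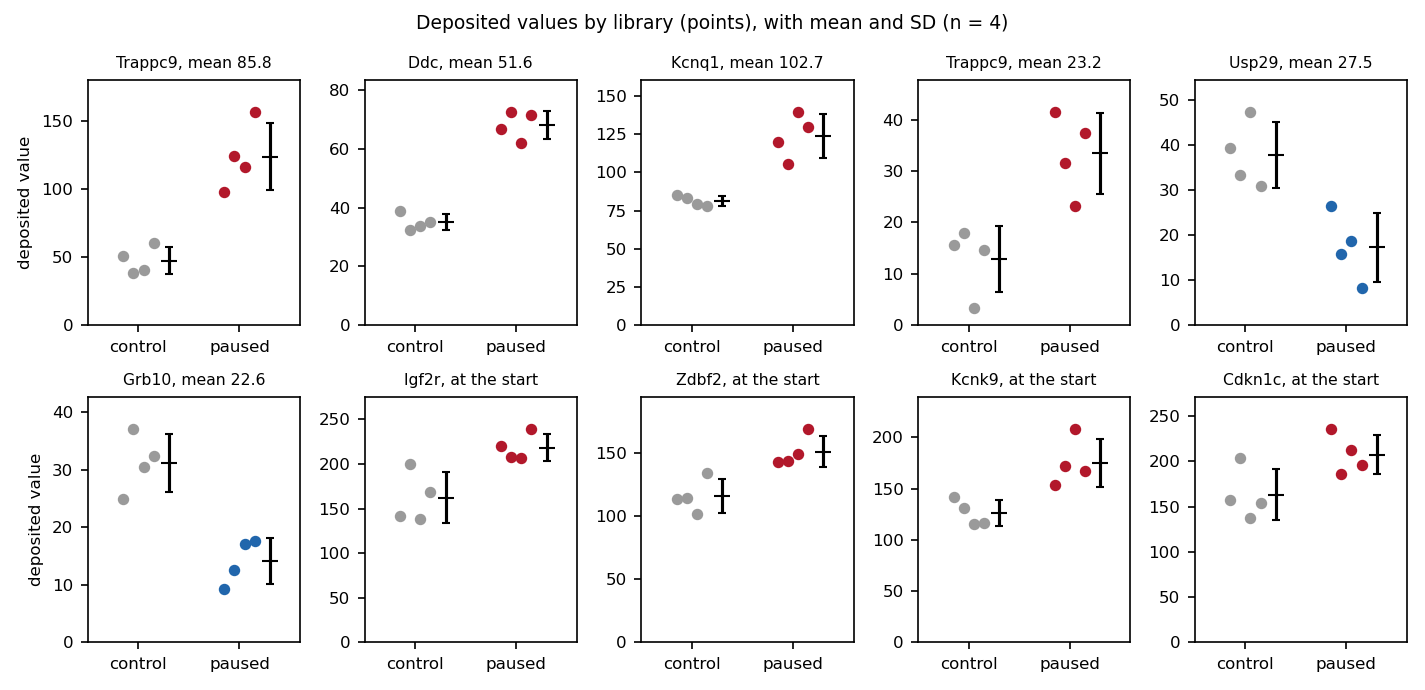
Deposited value (y axis, from 0) in each control and paused library (points), with the mean and SD of each group (n = 4) beside them, for the 6 peaks called in every alternative fit (named with the gene and the mean value) and the 4 called peaks at starts, where blue marks falls. The groups are apart in each panel except that of the Cdkn1c start, where 1 control library lies above 2 paused ones.

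The Kcnq1 cluster had the largest number of rises, 6 of 31 tested peaks (19.4%) with 0 falls. Of all tested peaks 11.0% rose and 2.91% fell. Its median change was 0.08, against 0.10 over all tested peaks. After TMM rescaling 2 rises (6.45%) and 0 falls were called, against 5.99% and 4.15% of all tested peaks. After scaling to total reads or the loess correction there were 1 (3.23%) and 0. The shares of all tested peaks were then 4.51% and 5.36%, or 5.10% and 3.50%. Of the 6 rises on the deposited scale, 4 lay in Kcnq1, a voltage-gated potassium channel gene whose span also holds the promoter of Kcnq1ot1. Cdkn1c, above, and Slc22a18, a membrane transporter, had 1 each. The peak at chr7:143119821-143120021, 13044 bases into Kcnq1, was at 85.0, 83.6, 79.6 and 77.9 in the control and 120, 106, 140 and 130 in the paused libraries. No library overlapped and every alternative fit called it (0.59 ± 0.13, adjusted p = 0.0021). The weakest of the 4, at chr7:143116630-143116830, went from 13.8 ± 5.04 to 23.8 ± 2.30 (0.81 ± 0.28, adjusted p = 0.048), and 4 of 17 alternatives called it, among the leave-one-out fits only that without control replicate 2. Chosen here after their values were seen, the other two in Kcnq1 rose by 0.56 and 0.58 without overlap (adjusted p = 0.00892 and 0.0249), and that of Slc22a18 by 0.45 with overlap (adjusted p = 0.0389). Leaving out control replicate 1 or 2 or paused replicate 2 or 4 ended the second of these calls, and leaving out any library other than control replicate 1 and paused replicate 2 ended that of Slc22a18. Ascl2, a transcription factor of trophoblast, and Phlda2, which restrains placental growth, had start peaks with changes of 0.28 ± 0.14 and 0.08 ± 0.12 that were not called. The strongest peak of the cluster, in Kcnq1 at chr7:143124360-143124560, was nearly equal in the groups, at 281 ± 23.7 and 284 ± 25.7, as was that at the Kcnq1 end, at 51.5 ± 5.32 and 53.4 ± 10.6.

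Usp29, a deubiquitinase gene of the Peg3 cluster that is read from the paternal chromosome, changed in both directions along its span, with 3 of 23 tested peaks lower and 2 higher. The fall at chr7:6874626-6874826 was from 39.4, 33.4, 47.4 and 30.9 in the control to 26.5, 15.8, 18.6 and 8.20 in the paused libraries (-1.17 ± 0.26, adjusted p = 0.00209), and it was called in all 17 alternatives. At chr7:6751574-6751774 values went from 29.8 ± 4.91 to 16.7 ± 6.19 with overlap (-0.85 ± 0.26, adjusted p = 0.0226), and leaving out control replicate 1, control replicate 3 or paused replicate 2 ended the call, as did DESeq2. At chr7:6781592-6781792 they went from 14.5 ± 3.25 to 6.62 ± 4.46, with 0 reads in paused replicate 3, which allows a value of up to 4.65 there (-1.46 ± 0.51, adjusted p = 0.0472). That call was lost without paused replicate 3, without each control library, with pseudocount 0.1, after the loess correction, in edgeR with the deposited factors and in DESeq2. The rises, 217613 and 225124 bases from the start, were 0.57 and 0.55 (adjusted p = 0.0427 and 0.0316, chosen after their values were seen), and they were called in 7 and 11 of 18 alternatives, under none of the 3 other scalings. Leaving out control replicate 2 or 3 or paused replicate 1, 3 or 4 ended the first call, and leaving out control replicate 1 or 4 or paused replicate 1 ended the second. Peaks at Zim1, a zinc-finger gene on the maternal chromosome, were not called, and its start was the strongest of the cluster, at 253 ± 28.1 and 284 ± 33.9 (0.16 ± 0.11, adjusted p = 0.356).

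**Figure D4:**
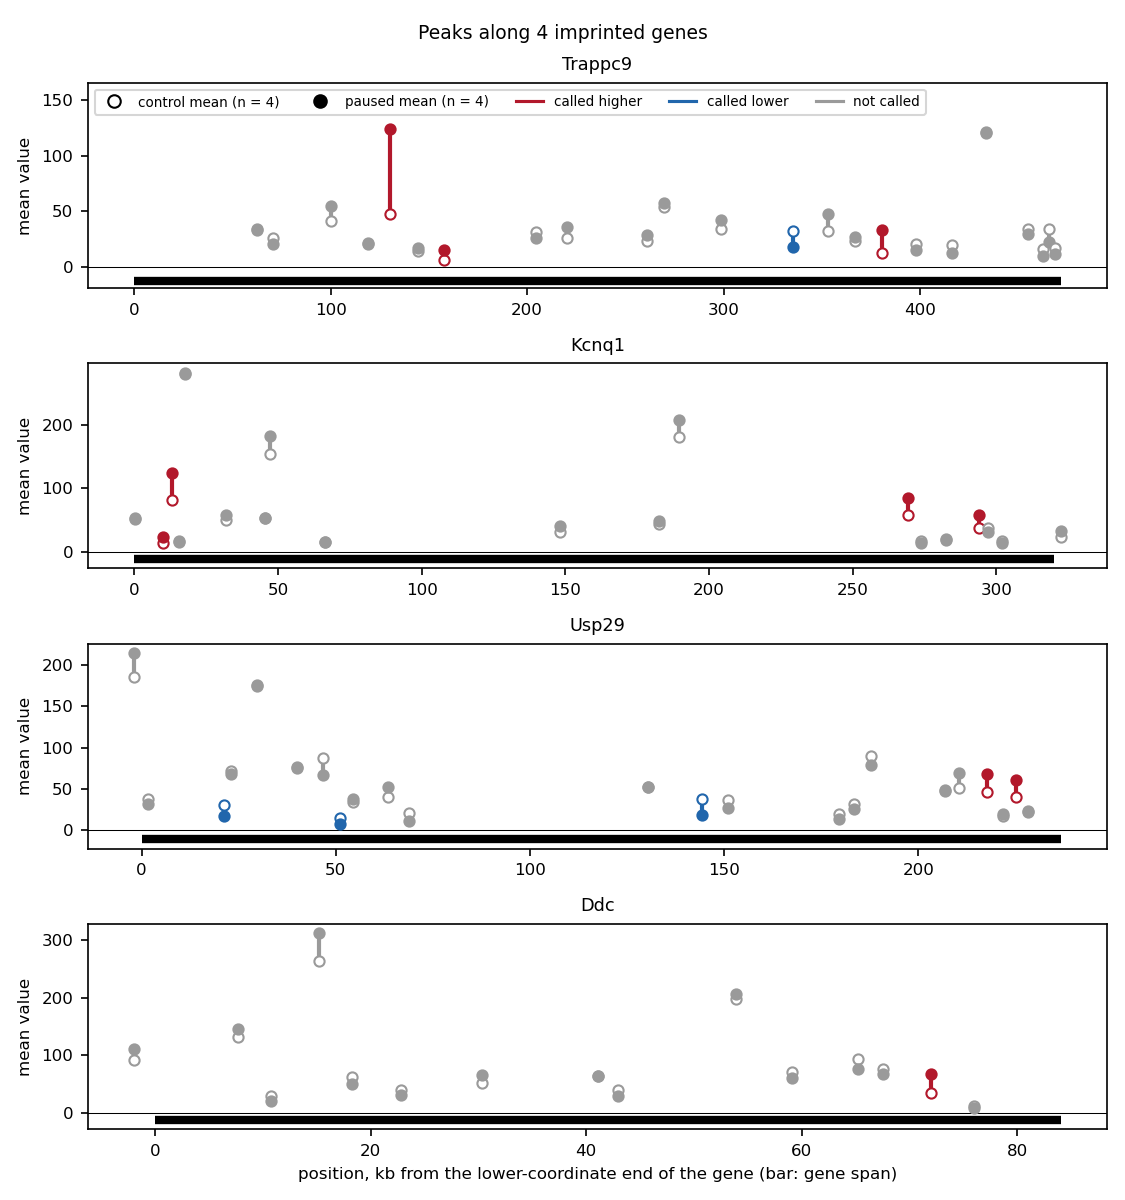
Mean value (y axis) in the control (open circles) and paused libraries (filled circles) of each tested peak along Trappc9, Kcnq1, Usp29 and Ddc, against the position in kb from the lower-coordinate end of the gene (x axis), with called rises in red, called falls in blue and the gene span as a black bar. With called peaks included, an unadjusted p under 0.05 was reached by 10 of 23 peaks of Trappc9, 4 of 19 of Kcnq1, 9 of 23 of Usp29 and 8 of 15 of Ddc. Of these, 4, 4, 5 and 1 were called, and 28.7% of all tested peaks reached that p. The called falls lie in Trappc9 and Usp29.

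In the Igf2r cluster the rise at the Igf2r start stood beside a fall in the gene body. The peak at chr17:12738001-12738201, which lies in Igf2r 3210 bases from the Airn start, was at 37.3, 39.4, 64.3 and 36.7 in the control and 20.8, 22.1, 26.4 and 28.1 in the paused libraries (-0.81 ± 0.21, adjusted p = 0.00779). The groups did not overlap, and without control replicate 3, the highest library, the adjusted p was 0.0639. The remaining 9 tested peaks of this cluster were not called, the start of Airn among them.

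Nnat, a small membrane protein gene inside the span of Blcap, had only 2 peaks, both without overlap and weak. The peak at chr2:157561378-157561578, 1400 bases from the Nnat start, was at 12.1, 15.5, 15.2 and 5.88 in the control and 26.5, 26.8, 20.2 and 28.1 in the paused libraries (1.07 ± 0.29, adjusted p = 0.0114), and leaving out control replicate 4 ended the call, as did DESeq2. The peak at the start was at 20.7, 21.5, 22.0 and 13.2 against 23.1, 23.7, 23.3 and 22.3, and it was not called (0.27 ± 0.25, adjusted p = 0.51).

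Single calls were found in 4 further clusters. Sgce, a sarcoglycan gene next to Peg10, had a peak at chr6:4677639-4677839 that rose from 43.6 ± 13.4 to 68.0 ± 15.1 (0.65 ± 0.19, adjusted p = 0.016). Control replicate 4 was above paused replicate 1 there, and the call was lost without control replicate 1, paused replicate 2 or paused replicate 4, after TMM rescaling, scaling to total reads or the loess correction, and in DESeq2. The strongest peak of its cluster, at chr6:4738808-4739008 in Sgce, was at 126 ± 11.0 and 154 ± 22.5 (0.28 ± 0.13, adjusted p = 0.137). Peg10, a retrotransposon-derived gene of the placenta, had no call among 3 tested peaks. The strongest of these, which also counts for Sgce and was chosen after its values were seen, did not overlap between the groups, at 75.4, 77.6, 99.9 and 92.6 in the control and 120, 104, 104 and 116 in the paused libraries (0.36 ± 0.14, adjusted p = 0.0631). Near Meg3, the non-coding RNA of the maternal chromosome, a peak 1737 bases from the start (chr12:109539159-109539359) rose from 54.1 ± 11.7 to 80.6 ± 21.8 with overlap (0.55 ± 0.18, adjusted p = 0.029), and leaving out control replicate 3, paused replicate 3 or paused replicate 4 ended the call, as did the 3 other scalings and DESeq2. That position is over another transcript, Gm34081. The 2 peaks within 1 kb of a Meg3 start had changes of -0.03 ± 0.16 and -0.45 ± 0.24 (the latter chosen after its values were seen) and were not called. Its neighbours Rtl1, a retrotransposon-derived gene, and the non-coding RNAs Rian and Mirg had 8, 6 and 4 tested peaks and no call. The strongest peak of this cluster, near Mirg, was at 97.0 ± 11.6 and 92.4 ± 16.6 (-0.08 ± 0.14).

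Commd1, a regulator of copper balance that hosts Zrsr1, had 1 fall, at chr11:22965518-22965718, from 45.6, 35.8, 35.6 and 36.7 in the control to 25.4, 29.97, 17.1 and 12.9 in the paused libraries. The groups did not overlap (-0.88 ± 0.23, adjusted p = 0.00916), and the adjusted p was 0.057 without paused replicate 4. The Commd1 start, the strongest peak there, was at 230 ± 21.8 and 266 ± 50.7 (0.19 ± 0.12, adjusted p = 0.283). Rasgrf1, an exchange factor of Ras, had a fall 62775 bases from its start (chr9:89972450-89972650) from 17.3 ± 4.95 to 7.68 ± 3.67, a peak of 3 to 16 reads outside control replicate 1 (-1.14 ± 0.36, adjusted p = 0.0306), and leaving out any of 5 libraries ended the call: control replicates 1, 3 and 4 and paused replicates 1 and 4. The loess correction and DESeq2 ended it too. Its start, the strongest peak of the gene, was at 76.5 ± 8.65 and 86.3 ± 3.80 (0.18 ± 0.14, adjusted p = 0.423). In the body of Zdbf2, the peak at chr1:63243958-63244158 fell from 25.9, 20.3, 30.5 and 27.9 to 11.5, 18.9, 10.9 and 12.9 without overlap (-0.92 ± 0.27, adjusted p = 0.0179), and it was lost without control replicate 1, 3 or 4. Its strongest peak, at chr1:63247185-63247385, was at 201.2, 208, 212 and 190 in the control and 245, 252, 209 and 274 in the paused libraries, which overlapped (0.27 ± 0.11, adjusted p = 0.0997).

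No peak was called in 7 clusters: Snrpn, Gnas, Mcts2-H13, H19-Igf2, Mest, Plagl1 and Impact, with 55 tested peaks in all. Igf2, the fetal growth factor, was at 131 ± 17.2 and 127 ± 12.99 at its strongest peak, 608 bases from a start (-0.03 ± 0.13, adjusted p = 0.89). A weaker Igf2 peak, at chr7:142655963-142656163, was at 20.7, 16.7, 13.6 and 25.0 in the control and 31.1, 23.7, 29.5 and 34.0 in the paused libraries (0.63 ± 0.24, adjusted p = 0.072). In the Snrpn cluster the start of Ube3a, the ubiquitin ligase of Angelman syndrome, was the strongest peak of all members, at 343 ± 46.9 and 389 ± 14.0 (0.19 ± 0.10, adjusted p = 0.221). Ndn, Magel2, Mkrn3 and Peg12, which are read from the paternal chromosome in neurons, had start changes between 0.05 and 0.12 with adjusted p from 0.573 to 0.802. The Copg2 start, a coatomer gene next to Mest, came nearest to a call, with 217 ± 33.1 and 268 ± 17.3 (0.31 ± 0.11, adjusted p = 0.059).

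At the start of Gnas, the gene of the stimulatory G protein subunit, values were 118 ± 21.0 and 124 ± 16.1 (0.07 ± 0.14, adjusted p = 0.759). The peak of lowest p in the Gnas cluster (chr2:174292663-174292863, 2673 bases from the nearest start) was at 24.2, 32.2, 42.3 and 23.5 in the control and 23.1, 17.4, 24.8 and 11.7 in the paused libraries. These values overlapped and the peak was not called (-0.65 ± 0.26, adjusted p = 0.0792). Dlk1, a Notch-like ligand, had a start peak at 50.1, 65.7, 69.4 and 39.7 in the control and 66.9, 74.1, 77.6 and 63.3 in the paused libraries, which overlapped (0.35 ± 0.17, adjusted p = 0.156). The H13 start, that of a signal peptide peptidase, was at 133 ± 37.7 and 146 ± 24.0 (adjusted p = 0.491). In the same cluster the peak of lowest p (chr2:152691819-152692019) was at 17.0 ± 2.34 and 11.8 ± 5.52 (-0.61 ± 0.34, adjusted p = 0.23), and the strongest, in H13, at 281 ± 33.4 and 321 ± 30.4 (0.19 ± 0.11, adjusted p = 0.241). The strongest peak of Plagl1 was at 200.3 ± 29.4 and 226 ± 14.5 (adjusted p = 0.293). Impact, a regulator of the kinase Gcn2, had no peak within 1 kb of an end, and its strongest peak was at 147 ± 20.4 and 177 ± 34.8 (0.25 ± 0.13, adjusted p = 0.212).

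Summed over a cluster, values were higher in the paused libraries without overlap in 5 of the 18 clusters and lower in 0, and they overlapped in 13. The 5 were Igf2r (ratio of paused to control mean 1.14), Kcnq1 (1.13), Mest (1.23), Nnat (1.54) and Peg13-Kcnk9 (1.18). Ratios ran from 0.99 at Rasgrf1 to 1.54 at Nnat, and over all member peaks the ratio was 1.08, against 1.12 for all peaks of the genome. For Mest the sums were 428, 478, 417 and 395 in the control and 498, 514, 556 and 539 in the paused libraries, although none of its 6 peaks was called. As a share of all reads in peaks, an alternative added after seeing the data, only the sums of Nnat were apart, 1.38 times higher, and the other 17 clusters overlapped.

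On the deposited scale, direction went with peak strength, both at the members and in the genome. Among the 106 member peaks with mean values of 50 or more, 13 were called higher (12.3%) and 0 lower, where 18.7% and 1.35% of all peaks of that strength were (20.1% in all). Among the 142 weaker ones, 5 were called higher (3.52%) and 9 lower (6.34%), where 6.67% and 3.76% of all such peaks were (10.4% in all). The 9 falls had mean values between 10.5 and 34.4 and the 18 rises between 10.9 and 190. After TMM rescaling the stronger member peaks had 5 higher and 2 lower calls (4.72% and 1.89%, against 9.56% and 2.37% of all such peaks) and the weaker ones 2 and 12 (1.41% and 8.45%, against 4.02% and 5.14%). After the loess correction, which levels changes over strength, they had 3 and 3 (2.83% and 2.83%, against 5.91% and 3.99%) and 3 and 9 (2.11% and 6.34%, against 4.65% and 3.23%), so that among all peaks rises outnumbered falls at either strength. A change of at least 2-fold was found at 4 of the rises and 4 of the falls. Among these were a Trappc9 rise (chr15:72746942-72747142) with 0 reads in control replicate 4 and a Usp29 fall (chr7:6781592-6781792) with 0 in paused replicate 3. Those calls held in 7 and 8 of 17 alternatives. The share of such changes among all tested peaks was not counted. Values did not overlap between the groups at 38 tested member peaks (15.3%), against 17.4% of all tested peaks. The plot of change against strength shows the falls at its weak end.

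**Figure D5:**
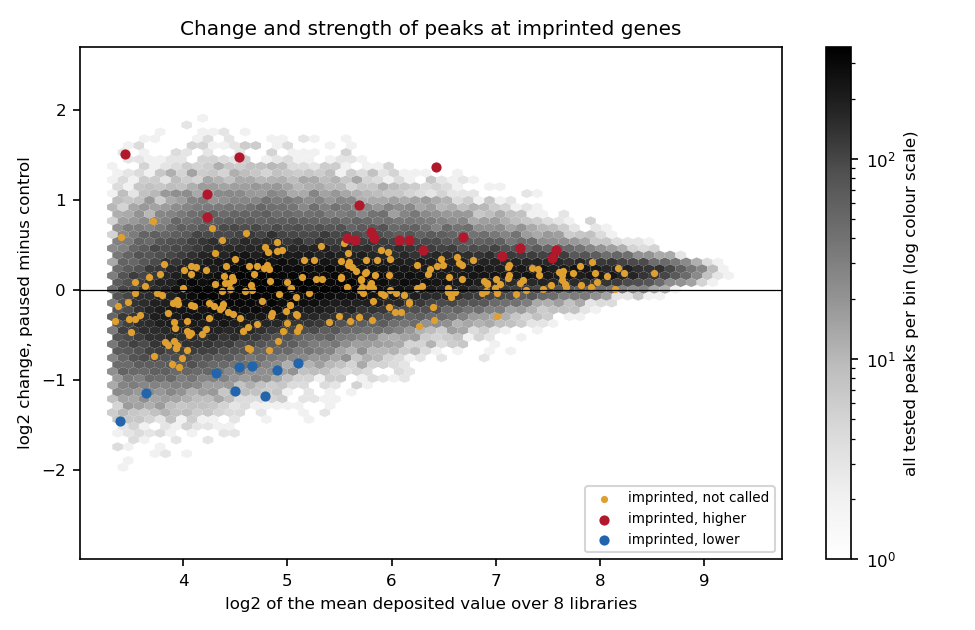
Log2 change (y axis, log2(value + 1), paused minus control) against the log2 of the mean deposited value over 8 libraries (x axis) for the 248 tested peaks at imprinted genes (orange, with called rises in red and called falls in blue), over the density of all 127402 tested peaks in grey on a log colour scale. The 9 falls have mean values of 10.5 to 34.4, and the 13 called peaks with a mean of 50 or more are all rises.

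Grouped by the parental chromosome from which genes are known to be read, maternally expressed genes had 13 higher and 3 lower calls among 114 tested peaks (11.4% and 2.63%), and paternally expressed genes 7 higher and 6 lower among 137 (5.11% and 4.38%), where 11.0% and 2.91% of all tested peaks were called. Peaks at overlapping genes of both kinds count in both groups. Parental expression was not measured in these cells. Trappc9, maternal mainly in brain, gave 3 of the 13 maternal rises and 1 of the 3 falls, and Kcnq1 gave 4 of the rises. After TMM rescaling the calls were 6 and 4 (5.26% and 3.51%) against 2 and 10 (1.46% and 7.30%), with 5.99% and 4.15% of all tested peaks. The medians were 0.08 and 0.04 on the deposited scale, and whether the groups differ was not tested. At starts, 3 of 13 peaks of maternally expressed genes and 1 of 20 of paternally expressed genes were called, against 12.3% of all peaks near an annotated start, and of these 4 calls 1 was left after TMM rescaling and 0 after scaling to total reads or the loess correction. Grb10 and Gnas, read from either chromosome depending on tissue or promoter, had 0 higher and 1 lower call among 21 peaks.

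All of the 17 genes that keep or set imprints had peaks. Of their 155 tested peaks, 20 were called higher (12.9%) and 4 lower (2.58%), against 11.0% and 2.91% of all tested peaks. After TMM rescaling the calls were 6 and 5 (3.87% and 3.23%, against 5.99% and 4.15%). After scaling to total reads the calls were 4 and 9 (2.58% and 5.81%, against 4.51% and 5.36%). The lowest p-values were found near Dnmt3l, a cofactor of de novo DNA methylation, Zfp57 and Dppa3, which guards the maternal genome against demethylation. The Dnmt3l peak at chr10:78065030-78065230 was at 77.1, 72.8, 74.5 and 66.1 in the control and 128, 117, 106 and 127 in the paused libraries (0.70 ± 0.13, adjusted p = 0.000361). For Zfp57, the peak at chr17:36997309-36997509 was at 143, 149, 174 and 173 against 221, 238, 262 and 243 (0.59 ± 0.11, adjusted p = 0.000437). That of Dppa3 at chr6:122624605-122624805 went from 148 ± 27.1 to 221 ± 31.7 (0.59 ± 0.13, adjusted p = 0.00188). All 3 were without overlap. A list of 32 other imprinted genes had 18 higher and 6 lower calls among 175 tested peaks (13.7%, against 13.9% of all tested peaks). After TMM rescaling it had 12 and 8 (6.86% and 4.57%, against 5.99% and 4.15%). This list was led by 2 peaks of Ppp1r9a (0.78 and 0.95) and 1 of Slc38a4 (0.81).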

How the data were processed

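ATAC-seq was carried out on 4 control and 4 paused libraries in paired-end reads of 150 bp (labels' protocols). The submitters' processing notes name FastQC, Trim Galore, Bowtie2 2.4.1, MACS3 3.0.3, DiffBind 3.16.0 and build mm10, with no role or order. The per-library values the authors deposited over 134407 peaks of 201 bp are a signal, namely peak read counts over 1 factor for each library. This was read from the values, 100.0% of which in each library were whole multiples of 1 step (tolerance 0.006), and the origin of the factors is not given in the sources used here. The table also holds log2 mean concentrations, log2 folds and p-values deposited by the authors: in the authors' deposited table the FDR is under 0.05 for 22 of the tested member peaks (15 higher, 7 lower), and 21 of these were called here. There were 0 unused per-sample columns.

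The main test was limma-trend (limma 3.58.1, R 4.3.3) on log2(value + 1), without covariates, on the 127402 peaks averaging 10 or more, adjusted over all of them by the Benjamini-Hochberg method. Changes on the log2(value + 1) scale understate those of weak peaks, and all are relative to the deposited scaling. Alternatives were edgeR 4.0.16 and DESeq2 1.42.0 on the recovered reads, other scalings, pseudocount 0.1, other filters and windows, a replicate block and each library left out. Tested on simulated data of the comparison of paused with control (126865 peaks, 200 of them changed), limma-trend called 69 peaks changed by log2 1, 97 changed by log2 1.5 and 2 unchanged ones. The 200 were split equally between both sizes of change, at a dispersion of 0.02. They left out weak peaks, so the recovery does not cover peaks as weak as most of the called falls.

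Reads in peaks were 4434037 to 21161767 per library. A count of 0 allows up to 3 reads, a value of 1.04 in control replicate 1 and 5.08 in control replicate 3, which covers counting error only. Chi-square values of 1.09 to 1.68 per degree of freedom between libraries of a group showed no library deposited more than once.

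Gene spans came from RefSeq GRCm38.p6, in which all 45 members were matched, Nespas by a synonym, and starts from 32851 RefSeq windows, with 34 members matched. Clusters, parental expression and germline DMRs were assigned by gene from textbook knowledge, so all starts of a gene share a label. The members and lists were chosen with earlier results of these data known. Peaks named in the text were, in each cluster, the one of lowest p and the strongest, the tested peak nearest each start within 1 kb, and the 15 called peaks of largest change; others are said to be chosen after their values were seen.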

Additional observations from a re-analysis of the deposited data

Results flagged for a closer look

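In 7 of 128 groups of 4 libraries examined, 1 library stood far from the other 3, and chance gives about 1 in 20. Control replicate 4 was at 13.23 at the Nnat start, against 20.74 to 22.01 in the other control libraries. Paused replicate 2 was at 77.29 at the Peg12 start, against 113.3 to 118.8. At the Gnas start chr2:174329122-174329322, paused replicate 1 was at 147.7, against 113.6 to 117.2. At the Usp29 peak chr7:6781592-6781792, paused replicate 3 was at 0.0, against 7.89 to 9.37, and without it the fall there was not called. At the Igf2r peak chr17:12738001-12738201, control replicate 3 was at 64.34, against 36.74 to 39.41, and without it the fall was not called. At the Commd1 peak chr11:22965518-22965718, control replicate 1 was at 45.63, against 35.56 to 36.74. Control replicate 1 held 21161767 reads in peaks, against 4434037 to 6262445 in the other control libraries.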

How the results depend on the processing

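The deposited scaling sets the balance of rises and falls. Calls were 7 higher and 14 lower after TMM rescaling, 5 and 18 after scaling to total reads and 6 higher after the loess correction. The shares of all tested peaks under these scalings are given above. In edgeR with TMM the calls were 11 and 17 (4.44% and 6.85%, against 7.13% and 5.54% of all tested peaks). DESeq2 called 9 (4 higher, 5 lower), and 3.06% and 1.49% of all tested peaks. A fit limited to peaks with mean values of 50 or more called 17 of 106 member peaks higher and 0 lower, against 22.4% and 1.66% of all such peaks. The median change of members was -0.049 after TMM rescaling (all peaks 0.001), -0.101 after scaling to total reads (all peaks -0.052), -0.064 after the loess correction (-0.011), -0.032 in edgeR with TMM (-0.008) and 0.126 in the fit of stronger peaks (0.185). Start calls were 1 after TMM rescaling and in edgeR with TMM, and 0 after scaling to total reads, after the loess correction and in DESeq2. Of the 21 named peaks called, 9 were called in the fit of stronger peaks, which tests fewer of them, 13 after the loess correction and 9 in DESeq2, where 7 clusters held a call. The cause of the other differences was not tested.

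With 1 library left out, 14 to 30 peaks were called (14 without paused replicate 4, 15 without control replicate 3), 8 to 17 higher and 3 to 13 lower, at 1 to 5 starts and in 7 to 12 clusters, with 11 to 22 named peaks called and medians of 0.041 to 0.084. The called share of all tested peaks then ran from 9.08% to 12.4%, against 13.9% in the main test. Of 8 libraries, paused replicate 4 and control replicate 3 moved the total by over 1.5 times; control replicate 1 and control replicate 3 so moved the falls, to 5 and 3, and paused replicate 4 the rises, to 8.

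Titles give both groups the same replicate numbers, and same-numbered libraries correlated at 0.079, 0.036, 0.133 and 0.039, not all over 0.1. Paused replicates 1, 3 and 4 correlated best with the same-numbered control library, and paused replicate 2 with control replicate 1 (0.062). The main test did not take the numbers as pairs, and whether same-numbered libraries shared a batch was not settled. With the replicate block 35 peaks were called (22 higher, 13 lower). The called share of all tested peaks was then 17.3%, against 13.9% in the main test. Other settings (pseudocount, no filter, edgeR with the deposited factors, both windows) gave 24 to 31 calls.

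Among the 62 named peaks, 22 that were not called changed sign in at least 1 fit. After TMM rescaling the changes were -0.03 at Gnas, -0.01 at Nespas, -0.04 at Mkrn3, -0.05 at Magel2, -0.02 at Phlda2, -0.06 at Zrsr1 and -0.06 and -0.09 at Kcnq1. After scaling to total reads they were -0.04 at Ndn, -0.03 at Peg12, -0.08 at Gnas, -0.07 at Nespas and Phlda2, -0.10 at Mkrn3 and Magel2, -0.12 at Zrsr1 and -0.12 and -0.15 at Kcnq1. After the loess correction they were -0.01 at Commd1, Kcnq1ot1 and H13, -0.04 at the H13 start and Mcts2, -0.02 at Ube3a and Plagl1, -0.05 at Zim1, -0.09 at Ndn, -0.00 at Rasgrf1, -0.07 at Peg12, -0.12 at Gnas, Nespas and Phlda2, -0.15 at Mkrn3 and Magel2, -0.17 at Zrsr1, and -0.11 and -0.20 at Kcnq1. In edgeR with TMM they were -0.02 at Nespas, -0.03 at Mkrn3, Magel2, Phlda2 and Zrsr1, and -0.07 and -0.09 at Kcnq1, and in DESeq2 -0.00 at Gnas, -0.02 at Nespas, -0.03 at Mkrn3 and Phlda2, -0.04 at Magel2 and Zrsr1, and -0.06 and -0.09 at Kcnq1. With 1 library left out, changes ran from -0.10 to 0.14 at Zrsr1, -0.14 to 0.06 at Meg3, -0.16 to 0.05 at Mirg, -0.03 to 0.15 at Gnas, -0.08 to 0.05 at Igf2, -0.07 to 0.13 and -0.04 to 0.07 at Kcnq1, -0.00 to 0.13 at Magel2 and -0.01 to 0.10 at Mkrn3. Depth limits weak peaks: outside control replicate 1, a peak of mean value 10 holds fewer than 10 reads.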
